A study of Sus scrofa with 4 samples.

Results

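Bile acid synthesis was described through 10 enzymes grouped around CYP7A1: CYP7A1, CYP8B1, CYP7B1 and AKR1D1 for the sterol ring, CYP27A1 for the side chain, AMACR, HSD17B4 and SCP2 for peroxisomal shortening, and SLC27A2 and SLC27A5 for activation. Of these, 9 were placed on Sscrofa11.1 from RefSeq gene positions, among 16303 named coding genes, and CYP7B1 was not analysed here. The peaks described are those whose summit lies inside a member gene or within 50 kb of it. They were 27 of 28283 peaks in the high bile acid list and 6 of 5735 in the low bile acid list.

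The mark is lactylation of lysine 12 on histone H4 (H4K12la), mapped by chromatin immunoprecipitation and sequencing in sow liver of late gestation. The titles name a low and a high bile acid group, the design text calls the low one normal, and each has 1 immunoprecipitated and 1 input library. All samples are labelled female, liver and hepatocytes. Treatment, breed, age and the number of sows behind a library are not stated in the sources used here. With 1 library a group there is no replicate check and no test between groups, and in bulk chromatin a mark on more cells cannot be told apart from more mark per cell.

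Liver makes bile acids from cholesterol. In the classic pathway CYP7A1 adds the first ring hydroxyl and sets the rate, CYP8B1 adds a further hydroxyl that gives cholic acid, and AKR1D1 reduces the ring double bond. CYP27A1 oxidises the side chain and CYP7B1 hydroxylates the ring of the resulting oxysterols in the alternative pathway. SLC27A2 activates the side-chain acid with coenzyme A, AMACR flips its configuration, HSD17B4 and SCP2 shorten it in peroxisomes, and SLC27A5 reactivates free bile acids that return to the liver. Bile acids restrain CYP7A1 through the receptor FXR, encoded by NR1H4.

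In the high list every placed gene had a peak inside or within 50 kb (9 of 9), against 85.5% of named coding genes. In the low list 3 of 9 had one, CYP7A1, SLC27A2 and SLC27A5, against 41.3% of named coding genes. Neither share is far from its background, given 9 genes. The 27 and 6 peaks stand in a ratio of 4.50, and the whole lists in a ratio of 4.93. Density was 19.6 peaks per Mb of member window in the high list, where the windows of named autosomal coding genes held 19.5, and 4.37 per Mb in the low list, where they held 3.62. Neighbouring windows overlap and were counted for each gene.

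In the high list the members' share stood above the background at gene ends, a count that was known when the genes were chosen and so supports nothing by itself. A summit lay within 1 kb of either end of the gene in 6 of 9 members in the high list (CYP7A1, AMACR, HSD17B4, SCP2, SLC27A2 and SLC27A5), against 16.5% of named coding genes. None of these end peaks had a q under 0.05, which leaves 0 of 9. Of all high-list peaks, 2.15% pass this limit, and the share of genes was not counted. In the low list a summit lay at an end in 0 of 9, against 3.13%. Summits inside the gene were found in 7 of 9 members in the high list, against 44.6%, and in 1 of 9 in the low list, against 14.9%. In HSD17B4, SCP2 and SLC27A5 the only high-list summit inside is that of the end peak, and in CYP7A1 it is 1 of 2. The inside count therefore reuses end peaks known when the genes were chosen and is not separate evidence. The members had a median length of 42.3 kb and named coding genes one of 25.6 kb, so the counts of summits inside genes do not compare genes of like length. Gene-end windows have the same size in all genes except the shortest. The annotation used gives no strand, so which end holds the start site is not stated for any gene.

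**Figure D1:**
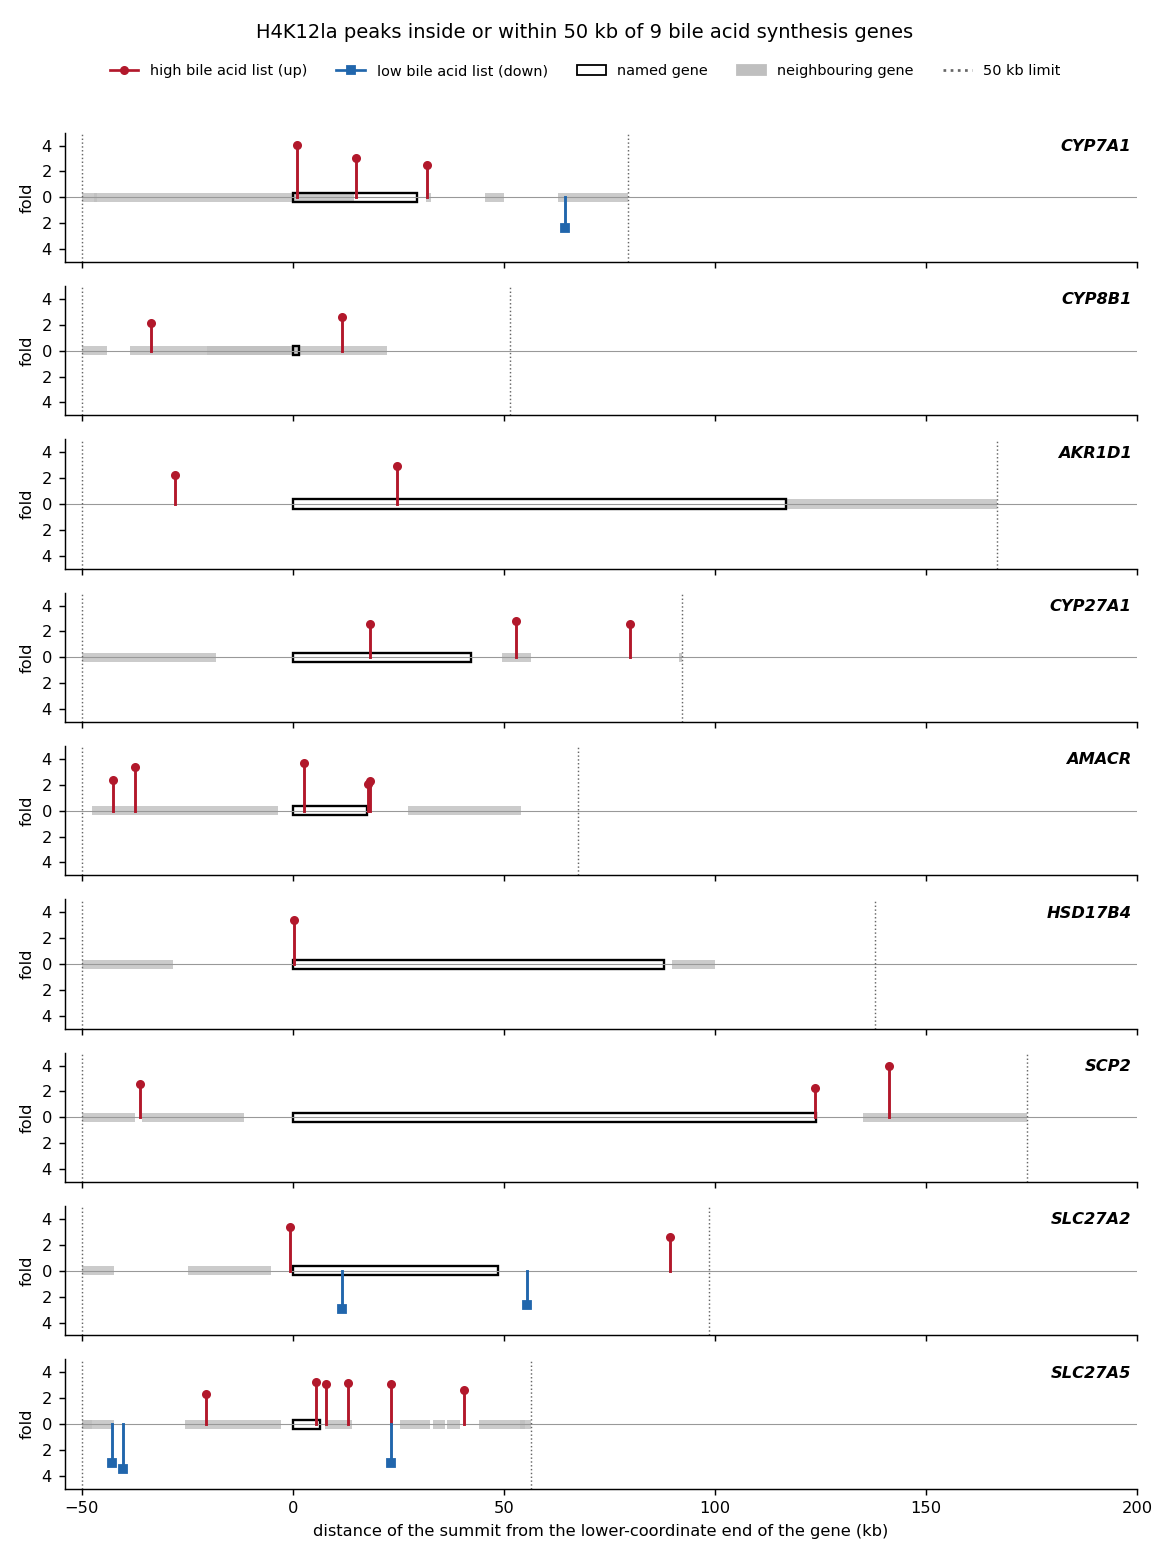
Each row is 1 gene, outlined, with neighbouring genes in grey; the horizontal axis is the distance in kb from the lower-coordinate end, and stems give the authors' fold at each summit, upward for the high list and downward for the low list. The 27 high-list stems are spread over all 9 genes, and the 6 low-list stems over CYP7A1, SLC27A2 and SLC27A5.

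CYP7A1, on chromosome 4 from 74343101 to 74372628, carried the highest fold of all 27 peaks. This high-list peak spans 74343628 to 74344329 and is 702 bp wide, a width reached by 2.60% of the list. The authors' fold sets the pileup at the summit against the local background, with the same constant added to both. It is therefore lower than fragments over expected fragments. Here it was 4.03, and the authors' q, the p-value adjusted over the list, was 0.0735. Behind it stood 11 immunoprecipitated fragments (95% Poisson interval 5.49 to 19.7), where 1.98 were expected. That is the least expected number in the high library. At the end peak of SLC27A5 the same 11 fragments, over 2.72 expected, gave a fold of 3.23. The summit lies 955 bp inside the gene from its lower end, and the neighbour SDCBP, which encodes the adaptor protein syntenin, also covers it: the annotated genes overlap by 14620 bp. The peak can therefore not be assigned to CYP7A1 alone. A high-list peak at an end was found for 2692 named coding genes, and 131 of them (4.87%) had one of at least this fold.

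The other high-list peaks around CYP7A1 were weaker and lay near ends of other genes. A peak at 74357932 to 74358335 (fold 3.02, q 0.3302, 8 fragments) has its summit in the middle of CYP7A1 and 438 bp from the end of SDCBP. A peak at 74374689 to 74375075 (fold 2.47, q 0.531, 7 fragments) lies 2278 bp beyond CYP7A1, in the pseudogene LOC110260460. The low list had 1 peak, at 74407435 to 74407799, 34982 bp away inside UBXN2B, with a fold of 2.38, a q of 1 and 9 fragments over 3.12 expected. Thus no low-list summit lay inside CYP7A1 or at its ends, and the folds of the high-list peaks were lower toward the upper end.

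CYP8B1 is a gene of 1506 bp on chromosome 13, from 26330233 to 26331738, set within ZNF662. It had no peak inside or at its ends in either list. Its 2 high-list peaks lay 33495 bp below it in ACKR2, a decoy receptor for chemokines (fold 2.12, q 0.711, 6 fragments), and 10111 bp above it in ZNF662 (fold 2.60, q 0.50, 7 fragments). The former has the fewest fragments of the 27 peaks. AKR1D1, on chromosome 18 from 11416065 to 11532846, had 1 high-list peak inside, 24633 bp from the nearer end (fold 2.90, q 0.3302, 8 fragments). A second one lay 27795 bp outside, over no annotated gene (fold 2.21, q 0.711, 8 fragments). Neither gene had a low-list peak in its window.

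CYP27A1, the mitochondrial enzyme of side-chain oxidation, lies on chromosome 15 from 120809886 to 120852196. Its high-list peak inside the gene spans 120827837 to 120828131, with a fold of 2.60, a q of 0.429 and 9 fragments over 2.85 expected. Of its other high-list peaks, 1 lay 10542 bp away in PRKAG3, which encodes a subunit of AMP-activated kinase (fold 2.80, q 0.358), and 1 lay 37686 bp away between genes (fold 2.60, q 0.429). No summit was within 1 kb of a CYP27A1 end, and the low list had no peak in the window. The gene thus had calls in its interior and surroundings, at folds below the high list's median of 2.90.

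The peroxisomal genes carried 9 high-list peaks and 0 low-list peaks, and each of the 3 had a high-list summit at an end. Among named coding genes, 16.5% had a high-list end peak and 41.3% had a low-list peak within 50 kb. With only 3 genes, and a high list 4.93 times as long, these counts are not a measured difference between the livers. At the AMACR and SCP2 end peaks, with 9 or 10 fragments, a low-library call would have taken 11. HSD17B4, the bifunctional enzyme that hydrates and dehydrogenates the side chain, lies on chromosome 2 from 123313445 to 123401386. It had 1 peak in a window of 188 kb, at 123313497 to 123313987, with the summit 315 bp inside the gene. Its fold was 3.38 (q 0.139), on 12 fragments (6.20 to 21.0) over 2.85 expected, the most fragments of any gene-end peak of the members. The nearest low-list summit was 968 kb away.

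AMACR, the racemase, lies on chromosome 16 from 20005741 to 20023339 and had 5 high-list peaks, a number reached by 24.3% of named coding genes. The strongest spans 20008136 to 20008432 inside the gene, 2578 bp from its lower end. Its fold was 3.69 (q 0.139) on 10 fragments over 1.98 expected, the least expected number in the high library. Just past the upper end lay a pair of weak peaks whose summits were 180 and 758 bp outside, with folds of 2.08 (9 fragments, q 0.711) and 2.29 (10 fragments, q 0.50). Both had 3.80 expected fragments, the largest expected number among the 27 peaks. The remaining peaks were 42537 and 37435 bp below the gene, in the pigment transporter gene SLC45A2, with folds of 2.34 and 3.38. AMACR thus joined the gene-end count through its weakest peaks, and its strongest peak lay outside the 1 kb limit.

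SCP2, which encodes the thiolase of the last shortening step and a sterol carrier protein, lies on chromosome 6 from 159191045 to 159314985. Its gene-end peak, at 159314557 to 159314920, had a fold of 2.29 (q 0.50) on 10 fragments over 3.80 expected. Among genes with such an end peak, 94.3% had one of at least this fold. The strongest peak of the window had the smallest q of all 27, 0.0399, and was the only one under 0.05. It lay 17301 bp beyond SCP2, at 159332091 to 159332424 inside ECHDC2, a gene of the enoyl-CoA hydratase family, with a fold of 3.98 on 13 fragments (6.92 to 22.2). Another peak lay 36186 bp below SCP2 and 392 bp from an end of PODN, with a fold of 2.60.

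The activation genes were the only members with more than 1 low-list peak. SLC27A2, a very long-chain acyl-CoA synthetase on chromosome 1 from 121530449 to 121578994, had a high-list peak at 121529576 to 121529961, whose summit is 715 bp outside the lower end. Its fold was 3.39 (q 0.167) on 10 fragments (4.80 to 18.4) over 2.24 expected. The low list had a peak inside the gene, at 121541751 to 121542049, with a fold of 2.97 on 10 fragments over 2.61 expected, and another 7082 bp beyond the upper end, with a fold of 2.65 on 8 fragments. The low-list summit inside the gene was 12297 bp from the nearest high-list summit. A second high-list peak, of fold 2.60, lay 40770 bp away. SLC27A2 therefore had calls in both lists at different positions, and was the only member with a low-list summit inside it.

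SLC27A5, the bile acid CoA ligase, lies on chromosome 6 from 63068880 to 63075246, and 10 annotated coding genes lie in or reach into its window. It had 6 high-list peaks and 3 low-list peaks, the most of any member in both lists. At least as many were found around 16.5% of named coding genes in the high list and around 3.20% in the low list. Only 1 of these 9 summits lay in SLC27A5 itself, at 63074136 to 63074644 in the high list, 852 bp from the upper end. Its fold was 3.23 (q 0.176) on 11 fragments (5.49 to 19.7) over 2.72 expected. Next came high-list peaks of fold 3.12 and 3.15 in ZBTB45, whose summits were 1506 and 6740 bp from SLC27A5 and 206 and 963 bp from the ends of ZBTB45. The weakest high-list peaks of the window lay 20639 bp below the gene in LOC110261334 (fold 2.34, q 0.548) and 34303 bp above it, 934 bp from an end of UBE2M (fold 2.60, q 0.429).

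The SLC27A5 window also held the 1 position called in both lists. The low-list peak at 63091819 to 63092306 and the high-list peak at 63091874 to 63092401 overlapped by 433 bp, and their summits were 1 bp apart. The summit had 10 fragments in both libraries, over 2.58 expected in the low and 2.52 in the high library, with folds of 2.997 and 3.12. The authors' q was 1 in the low list and 0.232 in the high list. Before adjustment, the peak caller's Poisson p was already 0.00059 in the low and 6.6e-05 in the high list. The same number of fragments thus stood at different values before and after adjustment, with the low pileup scaled by 0.881. The position is over no annotated gene, 16974 bp from SLC27A5 and 2162 bp from an end of TRIM28, which encodes a transcriptional corepressor. Shared positions made up 16.7% of the 6 low-list peaks and 3.70% of the 27 high-list peaks, against 3.63% and 0.732% of the whole lists, and the member shares rest on this 1 position. The remaining low-list peaks of the window, of fold 2.97 and 3.46, lay 42873 and 40103 bp below SLC27A5.

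Taking the peaks by position, 8 of the 27 high-list summits lay inside a member, 1 of them also inside SDCBP. A further 10 lay only inside another gene, and 9 lay over no annotated gene. For 15 of the 27 the nearest end of another gene was closer than the member's own. Shares of the whole list in these positions are not given here, so the counts cannot be called particular to these peaks. The 7 summits within 1 kb of a member end had folds of 2.08 to 4.03 with a median of 3.23, and the other 20 had folds of 2.12 to 3.98 with a median of 2.60. The ranges overlapped almost completely. Over the 2692 named coding genes with a high-list end peak, the strongest end fold had a median of 3.01. The end peaks of the members were known when the genes were chosen, so this contrast supports nothing by itself. Of the 27 peaks, 11 had a fold above the high list's median of 2.90 and 17 were wider than its median of 355 bp. Peak widths ran from 295 to 702 bp, and 4 of the 27 peaks had 295 bp, the smallest width of the list. Of all high-list peaks, 27.4% had this width. A fold repeats where fragments and expected number repeat: 5 of the peaks, all with 9 fragments over 2.85 expected, share the fold of 2.598 and the q of 0.429.

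Fragment numbers show how far a call in 1 list only can be read. The 27 high-list summits had 6 to 13 fragments, over 1.98 to 3.80 expected. Against an equal expected pileup, a call in the low library would have taken 7 to 11 fragments. This number lay within the counting interval of the high-list summit for 27 of 27 peaks. At 13 fragments or fewer the interval starts below 7, so the needed number could not have fallen under it, and this count supports nothing. At 5 of the 27, among them both AMACR end peaks and the SCP2 end peak, the fragments of the high library would have been too few for a call in the low library. At 4 they equalled the needed number, and at 18 they were above it. For the 6 low-list summits, with 8 to 11 fragments, a call in the high library would have taken 6 or 7. All 6 had more than that. The needed number again lay within the interval for 6 of 6, which the few fragments fixed. The counts of the other library at these positions are not in the lists. A missing call near these genes is therefore not a measured difference between the livers. At the edge of the windows, the farthest high-list summit was 42537 bp from AMACR (fold 2.34) and the next one beyond the limit was 53317 bp from it (fold 3.39). In the low list the farthest was 42873 bp from SLC27A5 and the next one beyond was 57364 bp from CYP7A1, both of fold 2.97.

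**Figure D2:**
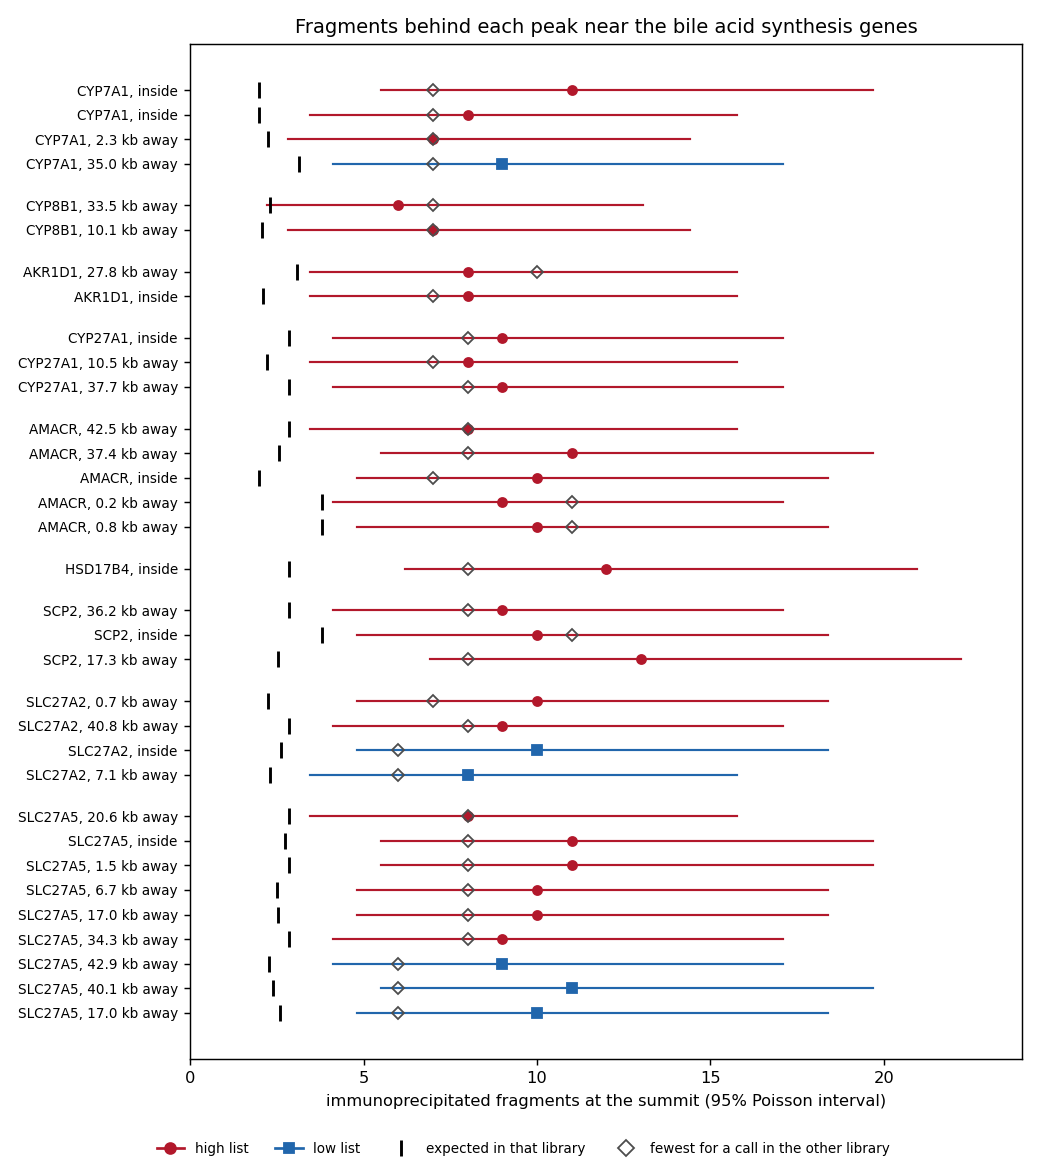
Each line is 1 peak near a member, named by the gene and the distance of its summit from it; points give fragments at the summit with 95% Poisson intervals, bars the expected number in that library and diamonds the fewest fragments for a call in the other library. Every diamond lies within the interval of its peak, and at CYP7A1 the strongest peak has 11 fragments where 7 were needed.

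The lists differ in length, so the high list was also taken at the length of the low list, by smallest p. It then held 7 peaks near 6 members, next to 6 low-list peaks near 3 members. The peak caller's largest Poisson p was 4.29e-05 in the shortened list and 0.00989 in the low list. The 2 counts are thus of equal list length but unlike thresholds. Around the genes, 6 of 9 members kept a peak within 50 kb, against 44.0% of named coding genes. Inside genes 4 of 9 did, against 15.8%, and at gene ends 4 of 9 did, against 4.65%. The end count recounts peaks known when the genes were chosen, so it supports nothing by itself. CYP7A1, HSD17B4 and SLC27A5 entered both counts through the same peak, and the inside count again does not compare genes of like length. The 4 with a gene-end peak were CYP7A1, HSD17B4, SLC27A2 and SLC27A5. The end peaks of AMACR and SCP2 were not among the shortened list.

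The rest of the pathway was read from a fixed list of 10 further genes, of which 7 were placed: HSD3B7, CYP39A1, CH25H, ACOX2, ACOT8, ABCD3 and PEX5. All 7 had a high-list peak within 50 kb, against 85.5% of named coding genes. At a gene end 0 of 7 had one in either list, against 16.5% in the high and 3.13% in the low list, so with 7 genes these counts are near the background. Summits inside the gene were found in 2 of 7 in the high list, against 44.6%: HSD3B7, the ring dehydrogenase that acts after CYP7A1, with 1 and ACOX2, the peroxisomal oxidase that acts before HSD17B4, with 2. In the low list 1 of 7, ACOX2, had a peak within 50 kb, against 41.3%.

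**Figure D3:**
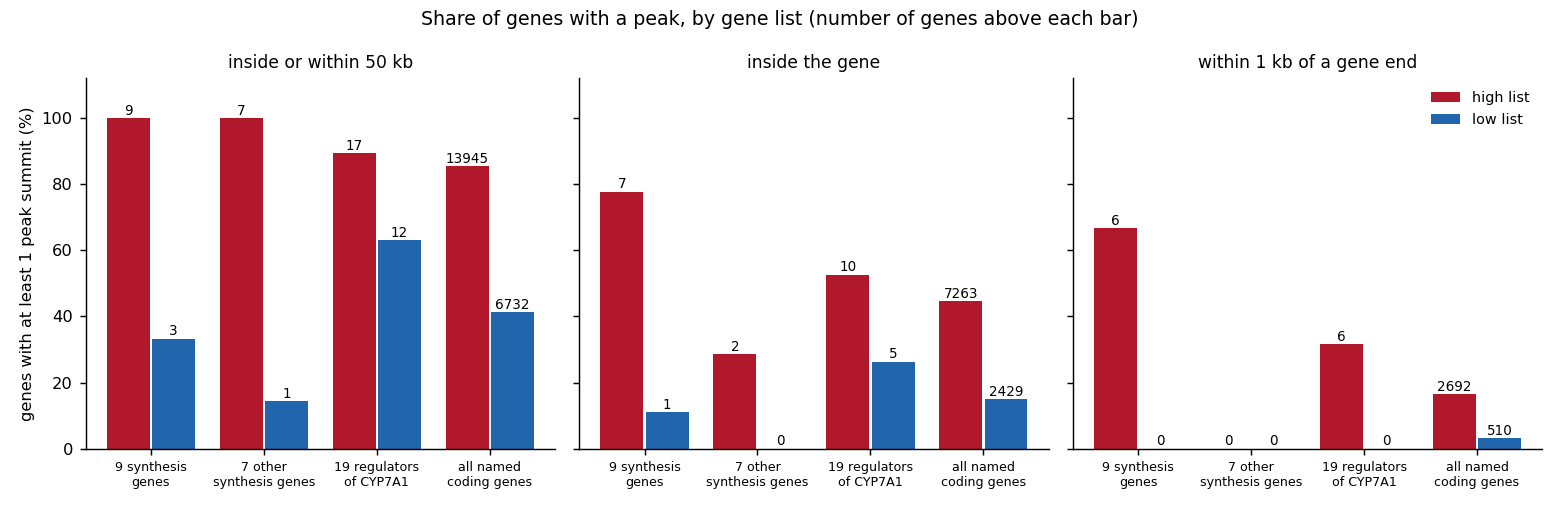
Bars give the percentage of genes with at least 1 peak summit inside or within 50 kb (left), inside the gene (middle) and within 1 kb of a gene end (right), for the high and low lists, with the number of genes above each bar. At gene ends the high list reaches 6 of 9 synthesis genes, 0 of 7 other synthesis genes, 6 of 19 regulators and 16.5% of all named coding genes.

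Regulators of CYP7A1 were counted in the same way. Within 50 kb, 17 of 19 listed genes had a high-list peak, against 85.5% of named coding genes, and 12 of 19 had a low-list peak, against 41.3%. A summit at an end was found in 6 of 19 in the high list, against 16.5%, and in 0 of 19 in the low list, against 3.13%. Those of the high list included NR1H3, which encodes the oxysterol receptor LXR alpha (fold 3.69, q 0.139), JUN (3.19, q 0.157), NR1D1, a clock repressor (3.16, q 0.214), NR1I2, the xenobiotic receptor PXR (2.63, q 0.402), and MAFG, a bile acid-induced repressor (2.34, q 0.548). The 2 genes without a high-list peak within 50 kb were NR1H4 and MAPK8, which encodes a JNK kinase, and both had 1 low-list peak there. Summits inside the gene were found in 10 of 19 in the high list, against 44.6%, and in 5 of 19 in the low list, against 14.9%. HNF4A, a transcription factor that activates CYP7A1, was among both, with 3 high-list and 2 low-list summits. These regulator counts do not compare genes of like length either, inside genes or within 50 kb. PPARGC1A, from 17841844 to 18527953 on chromosome 8, held 6 high-list and 3 low-list summits.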

How the data were processed

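H4K12la was measured in 2 immunoprecipitated libraries, each with an input. Per the labels' protocols, chromatin was fixed with formaldehyde (1%) and sonicated for 8 min, and libraries took 10 ng DNA, 13 PCR cycles and fragments of 250 to 450 bp. The submitters' processing notes list MACS2 2.1.0, Bowtie 1.1.2, Trimmomatic 0.33 and bcl2fastq 2.17, and name both hg38 and Sscrofa11.1. Positions were read as Sscrofa11.1, since the last peak of each of 20 chromosomes lay a median of 24.2 kb from its last annotated pig gene. The difference was 931 kb on X and 1763 kb on Y. Calls on Y in samples labelled female were not examined, and no placed member lies on X or Y. The authors deposited 1 narrow peak list per library, not pooled, with a fold, −log10 p-values and −log10 q-values. The fold was read as the pileup at the summit over the local background, with 1 added to both. The deposited score repeats the p-value and was left aside. No source used here states the cutoff; the largest p was 0.00989 in both lists, so 0.01 set the fewest fragments for a call.

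Peaks were assigned by summit (Python 3.11.15, numpy 2.4.6, pandas 2.3.3, scipy 1.17.1). Fragments at each summit were solved from fold and p, with a scale of 0.881 on the low pileup, and came out whole within 0.002 in −log10 p for all but 1 peak per list; the solver was tested on simulated data. The least expected number was 2.20 fragments in the low and 1.98 in the high library. Reads without molecular identifiers are not independent molecules, so intervals cover counting error only. Total depth per library is not stated in the sources used here.

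Members, lists and windows were chosen with earlier results of these data known, among them gene-end peaks at 6 of these genes, so those counts are no independent evidence. Genes were named by rule: all members, listed genes with end peaks, and genes that hold or lie nearest a peak; other genes of the lists were named after their values were seen. A regulator with an end peak is not reported here by name. The motif search planned for promoters was not run, and no sequence was used here.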

Additional observations from a re-analysis of the deposited data

How the results depend on the processing

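Of 40 recounts under other settings, 18 stayed within 1.5 times the main count. Among these were low-list gene-end counts of 0, which a limit on q or fold could not have changed. At q under 0.05 the high list kept 1 peak near 1 member, with 0 members holding a peak inside and 0 at a gene end, and the low list kept 0 peaks near 0 members and 0 inside; of the whole lists, 2.15% and 0.227% of peaks pass this limit. At a fold of 4 or more the high list kept 1 peak near 1 member, inside and at the end of that 1 gene (CYP7A1), and the low list kept 0 peaks, 0 members and 0 inside. These falls come with shorter lists. With the high list at the length of the low list, 7 peaks remained within 50 kb and 4 members had a peak inside. A window of 10 kb gave 14 high-list peaks and, in the low list, 2 peaks near 1 member. One of 100 kb gave 43, and 12 near 5 members. Shares of all named coding genes were not counted at these windows or at the limits on q and fold. These changes can therefore not be called particular to the members. Assigning peaks by any overlap of 1 bp, a gene-end window of 3 kb and other definitions of a shared peak changed no count. No paired analysis was possible because the groups share no numbered replicates and have 1 immunoprecipitated library each. The few fragments per summit limit what can be read from a missing call.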

Other observations

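Markers of liver cell types were counted over the same windows. Peaks do not measure expression, so the labelled cell type could not be checked by marker levels. Of 10 hepatocyte markers, 8 had a high-list peak within 50 kb, 4 had one inside the gene and 1, TTR, the thyroxine carrier, had one at a gene end (fold 2.21, q 0.711). The shares over all named coding genes were 85.5%, 44.6% and 16.5%, so the marker counts are near the background. ALB, which encodes albumin, lacked a peak within 50 kb in both lists, and APOA1, the main apolipoprotein of HDL, had 1 low-list peak and no high-list peak. In the low list 2 of 10 had a peak within 50 kb, against 41.3%.

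Markers of other cell types number 4 or 5 per list, too few to set apart from these shares. At gene ends the high list had a peak at 1 of 4 placed cholangiocyte markers (SCTR, the secretin receptor), 1 of 5 endothelial markers (CDH5, a cadherin of vessel walls, fold 3.69), 0 of 5 Kupffer and myeloid markers and 0 of 5 stellate markers. Inside genes it had 1 of 4, 4 of 5, 1 of 5 and 2 of 5 in the same order. In the low list 1 of 4, 2 of 5, 3 of 5 and 1 of 5 had a peak within 50 kb. Inside genes the low-list counts were 1 of 4, 2 of 5, 1 of 5 and 1 of 5. AIF1, a macrophage gene, was the only one of these markers with a low-list gene-end peak (fold 2.68, q 1, 8 fragments), where 3.13% of named coding genes had one.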
